A study of Mus musculus with 2 samples.

Results

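In the control global run-on sequencing (GRO-seq) library of mouse bone marrow-derived macrophages (BMDMs), 11140 of 43122 called transcripts had a score of at least 0.5, and 1445 of these overlapped no transcript of the library made 1 hr after interleukin-4 (IL-4) by even 1 bp on the same chromosome and strand. These 1445 segments are the control-only transcripts described here. They made up 13.0% of the control transcripts of score 0.5 or more (95% Wilson confidence interval 12.4% to 13.6%). The other 9695 had an IL-4 counterpart of any score. In the opposite direction, 697 of the 7579 IL-4 transcripts of that score, or 9.20%, overlapped no control transcript, and both libraries together held 94487 transcripts. The members were selected on their control score and on their lack of an IL-4 overlap, so these values describe the selection and no test was made on them.

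Both libraries came from wild-type mouse BMDMs (label "Wt"; age 8-12 weeks; bone marrow source), macrophages grown from bone marrow for 6 days in L929 cell supernatant, which carries the growth factor M-CSF. The control had no added cytokine, and the other culture received 20 ng/ml IL-4 for 1 hr. Run-on reactions with Br-UTP were done in duplicate and pooled, so there was 1 library per condition, and an effect of IL-4 and a difference between the libraries cannot be told apart. Nor can fewer transcribing cells and less RNA per cell. The labels name no altered gene and no stimulus other than IL-4, and do not give the number of animals.

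GRO-seq lets RNA polymerases already engaged on the DNA extend their transcripts in isolated nuclei and then captures the labelled RNA. Because the RNA is unspliced, most of the signal of a long gene lies in its introns, and a single gene appears as a string of separately called segments. IL-4 acts through its receptor, JAK kinases and the factor STAT6, and turns macrophages toward the alternatively polarized state. A segment that was not called after IL-4 lay below what the caller detected at an unknown sequencing depth, which is not the same as being silent.

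A set of the members is shown first because their base composition recurs in the results. Of the control-only transcripts, 148 on the chromosomes read for sequence lay wholly inside an exon of the GENCODE M21 annotation, 90 of them in exons of coding transcripts, so their bases could be read on the transcribed strand. In the sequences below, all in mm10 (GRCm38) and outside annotated untranslated regions, capitals mark the longest stretch built of only G and T, only A and C, only A and G or only C and T, whichever is longest. The first 5 carry a G and T stretch and lie in exons of noncoding transcripts, such as retained introns, of Anapc16 (chr10:59997427-59997480, minus strand), Ehmt2 (chr17:34902306-34902382, plus strand), Atp6v1c1 (chr15:38680075-38680180, plus strand), Fam214a (chr9:74954226-74954286, plus strand) and Tut4 (chr4:108514047-108514113, plus strand). The next 2 are the contrasts with A and C or C and T, in Fli1 (chr9:32536990-32537086, minus strand) and Pid1 (chr1:84133018-84133079, minus strand). The last 3 carry an A and G stretch and lie in coding exons, in Baz1b (chr5:135240041-135240139, plus strand), Anp32a (chr9:62374658-62374739, plus strand) and Kmt2a (chr9:44847902-44847976, minus strand).
Anapc16: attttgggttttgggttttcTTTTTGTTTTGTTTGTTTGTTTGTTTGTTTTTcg
Ehmt2: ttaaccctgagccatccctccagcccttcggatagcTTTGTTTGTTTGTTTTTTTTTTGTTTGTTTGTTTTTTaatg
Atp6v1c1: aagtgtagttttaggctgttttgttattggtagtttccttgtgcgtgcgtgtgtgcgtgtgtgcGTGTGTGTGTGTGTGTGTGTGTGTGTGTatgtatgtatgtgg
Fam214a: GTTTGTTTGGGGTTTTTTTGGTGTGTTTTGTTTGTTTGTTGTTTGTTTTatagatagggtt
Tut4: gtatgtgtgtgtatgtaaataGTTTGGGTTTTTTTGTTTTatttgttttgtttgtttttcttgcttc
Fli1: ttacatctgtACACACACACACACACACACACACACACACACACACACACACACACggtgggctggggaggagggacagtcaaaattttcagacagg
Pid1: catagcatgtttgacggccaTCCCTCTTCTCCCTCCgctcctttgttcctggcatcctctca
Baz1b: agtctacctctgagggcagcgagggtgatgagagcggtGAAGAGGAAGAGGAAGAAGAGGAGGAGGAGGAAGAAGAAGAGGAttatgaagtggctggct
Anp32a: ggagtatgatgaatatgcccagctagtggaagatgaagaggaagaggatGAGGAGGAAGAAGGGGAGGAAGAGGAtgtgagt
Kmt2a: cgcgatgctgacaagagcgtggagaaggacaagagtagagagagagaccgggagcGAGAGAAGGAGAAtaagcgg

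The genes of the first set have unlike roles: Anapc16 is a subunit of the anaphase-promoting complex, Ehmt2 a histone H3 methyltransferase, Atp6v1c1 a proton pump subunit and Tut4 a uridylyltransferase. The Anapc16, Ehmt2 and Atp6v1c1 segments are annotated as simple repeats, with T making up 70.4%, 51.9% and 46.2% of their bases. The Fam214a and Tut4 segments carry no repeat annotation, yet their longest G and T stretches ran over 49 and 19 bases. Fam214a and Tut4 were also genes in which no IL-4 transcript of any score was called. Among the 148 readable members, the G and T stretch was the longest of the 4 kinds in 80 (54.1%) and the A and C stretch, its complement, in 7 (4.7%). The A and G stretch was the longest in 34 (23.0%). In the 90 in exons of coding transcripts, the G and T stretch was the longest in 41 (45.6%). The A and G stretch was the longest in 26 of these (28.9%). For the 908 such transcripts with a counterpart the shares were 39.6% and 28.2%.

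Read beside transcripts of the same length, this composition was largely shared. For segments of 36 to 100 bp, the G and T stretch was the longest kind in 62.8% of 86 control-only transcripts and in 59.8% of 296 with a counterpart. A G and T stretch of 12 bases or more was present in 61.6% and 50.7%, and the median longest stretch was 17.5 and 12.0 bases. Between 101 and 400 bp the shares with the G and T stretch longest were 42.6% of 54 and 43.5% of 890. The readable segments are a minority that exon annotation picked out, so these values do not stand for all members.

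The control-only transcripts were short and weak. Their scores ran from 0.5 to 4.2 with a median of 0.6, against a median of 0.7 and a top of 2125.5 with a counterpart. Just inside the limit lay 619 transcripts of score 0.5, and just outside it another 1137 of score 0.4 also lacked a counterpart. The median length was 89 bp (quartiles 62 and 164 bp) against 208 bp with a counterpart and 239 bp for the IL-4-only transcripts. Of the members, 823 (57.0%) were at most 100 bp long, compared with 23.0% of the transcripts with a counterpart. They lay evenly on the strands, with 724 on the plus and 721 on the minus strand.

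The share without a counterpart fell steeply with length and score. It was 33.3% (interval 30.4% to 36.4%) at 36 to 60 bp, 24.0% at 61 to 100 bp, 11.8% at 101 to 200 bp, 6.60% at 201 to 400 bp and 3.64% (2.89% to 4.57%) at 401 bp or more. By score it went from 20.5% at 0.5 to 14.5% at 0.7 and 2.91% at 1.1 or more. Wilson intervals here and below cover the sampling of transcripts within 1 library, and say nothing of how cultures vary, and transcripts of a single gene are not independent. Length is not in the rule, but a short segment has fewer bases with which to meet a counterpart. The part of this in the fall with length was not tested.

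**Figure D1:**
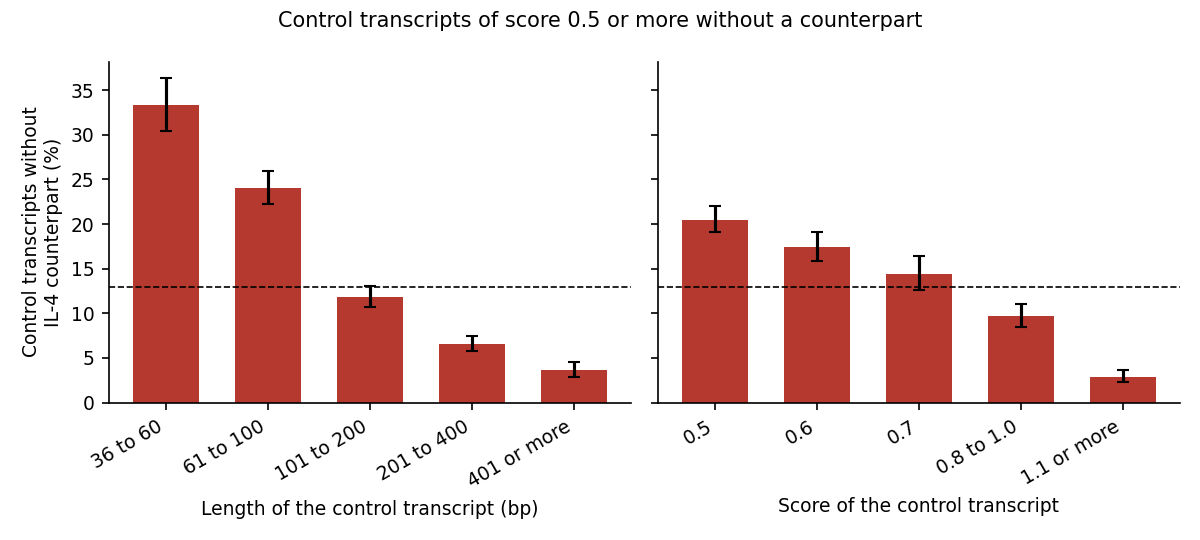
Share of control transcripts of score 0.5 or more without an IL-4 counterpart (y axis, %) by length in bp (left) and by score (right), with 95% Wilson intervals; the dashed line is the share over all 11140, 13.0%. The share drops from 33.3% in the shortest class to 3.64% in the longest, and from 20.5% to 2.91% with score.

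The libraries differed in how many short segments they held and in score. The control library had 4578 transcripts of at most 100 bp and the IL-4 library 1698, although the IL-4 library held more transcripts in all (51365). At that length the lowest scores that were called lay higher, with a 5th percentile of 0.3 in both libraries compared with 0.1 at 201 to 400 bp. Over all called transcripts the median score was 0.3 in control and 0.2 after IL-4. For the 9695 pairs with a counterpart, it was 0.7 in control and 0.5 after IL-4. Their median log2 ratio was -0.64, and 77.7% were lower after IL-4. These pairs were chosen for a control score of at least 0.5 with no limit on the IL-4 score. That choice favours a lower IL-4 value, and pairs chosen on the IL-4 score were not examined. Whether the scores were scaled to library size is not given in the sources used here, so the part of these differences in the absence of a counterpart was not tested.

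Many control-only transcripts had an IL-4 transcript nearby on the same strand. The nearest one lay 4010 bp away at the median (quartiles 1068 and 15442 bp). It was within 100 bp for 34 members and within 1000 bp for 348 (24.1%), while 471 (32.6%) had none within 10 kb. On the opposite strand, 13 members overlapped an IL-4 transcript. The set thus held segments beside a called IL-4 stretch as well as segments in long stretches without any IL-4 call.

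Introns held 1159 of the 1445 control-only transcripts (80.2%, interval 78.1% to 82.2%), against 67.5% (66.5% to 68.4%) with a counterpart. Promoters, where polymerase pauses soon after initiation, held 32 (2.21%, 1.57% to 3.11%) against 10.2%. Exons held 2.84% against 6.73%, 5' untranslated regions 0.484% against 2.77%, 3' untranslated regions 2.70% against 3.73% and intergenic DNA 9.07% against 6.26%. Transcription ends held 2.21% and 2.24%. A CpG island, the typical base composition of a broadly active promoter, was annotated for 6 members (0.415%) against 5.63%.

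Simple repeats, short units copied in tandem, were named for 311 members (21.5%, 19.5% to 23.7%), against 14.2% with a counterpart, 8.36% of all control transcripts and 10.8% of the IL-4-only transcripts. Low-complexity sequence added 6.02% against 5.31%. Retroelements were present at lower levels: LINE 4.43% against 2.81%, LTR 3.67% against 2.31% and SINE 7.40% against 7.97%. No repeat or island was named for 792 members (54.8%).

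Among short transcripts the intron and repeat shares of both sets lay within 1 point of each other, while among longer ones the members had the higher intron share. At 36 to 100 bp, introns held 80.7% of the control-only transcripts and 80.5% of those with a counterpart, and simple repeats or low-complexity sequence were named for 33.4% and 34.2%. The promoter share was still lower in the members, 2.19% against 4.93%. From 101 to 400 bp the shares in introns were 81.5% and 66.6%, the shares in repeats 21.0% and 17.8%, and those in promoters 2.17% and 11.3%.

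**Figure D2:**
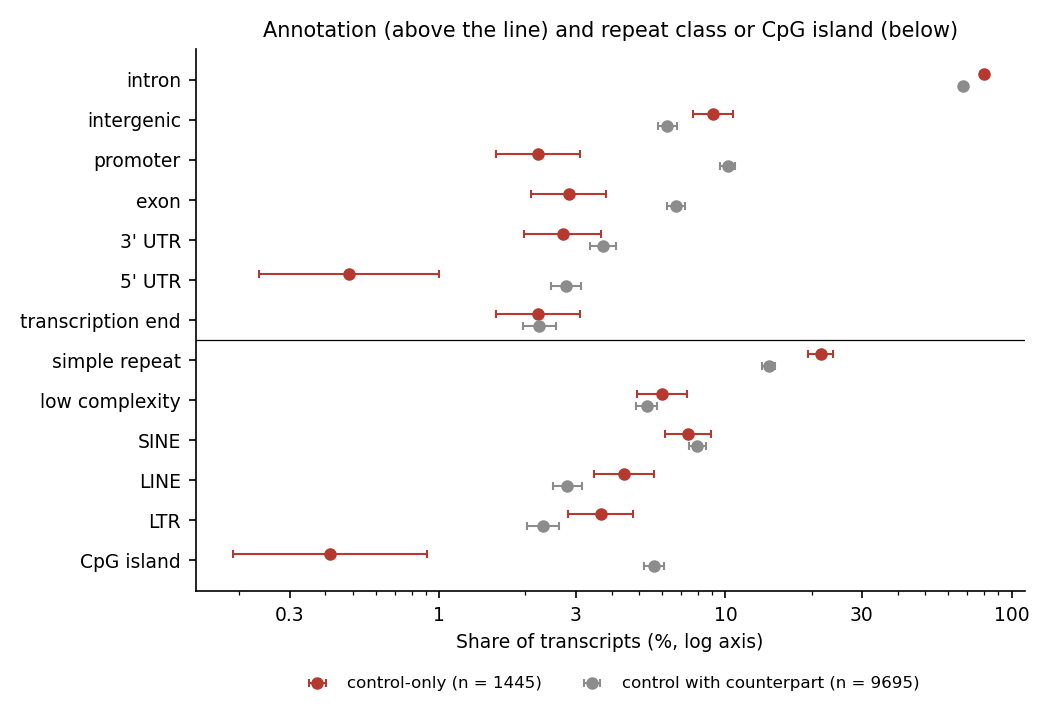
Share of control-only transcripts (red, n = 1445) and of control transcripts with an IL-4 counterpart (grey, n = 9695) in each annotation class and in each repeat class or CpG island (x axis, %, log scale), with 95% Wilson intervals. Introns, intergenic DNA, simple repeats, LINE and LTR elements lie further right in the control-only set, and promoters, exons, 5' UTR and CpG islands further left; lengths are not matched here.

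The repeat units ran in 1 direction. Taken on the transcribed strand, the unit had more T than A in 284 of the 311 simple repeat members (91.3%, 87.7% to 94.0%), as in 93.4% of the repeats with a counterpart and 83.5% of those of all control transcripts. The commonest units were GTTT in 90, GT in 55, GTTTT in 50 and GTTTTT in 23. The complement of GT, AC, was the unit in 12. These units assume that the annotation writes each repeat for the plus strand, which the readable sequences above allow to be seen directly: the Anapc16 member, on the minus strand and annotated (CAAA)n, reads as TTTG repeats. The run-on used Br-UTP and captured bromouridine-containing RNA; its part in this composition was not tested.

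Along genes, the control-only transcripts lay farther from the start than those with a counterpart, in sets not matched for transcript length. Of the members, 1338 (92.6%) lay on the sense strand of an annotated gene, at a median of 29.5 kb from its start (quartiles 10.5 and 75.9 kb), against 14.9 kb (2.36 and 44.5 kb) for the 9040 sense transcripts with a counterpart. Within 1 kb of the start lay 39 (2.91%) against 20.0%. When each gene was divided into 3 parts of equal length, 37.2%, 31.8% and 30.9% of the members fell in the first, middle and last part, against 49.3%, 26.6% and 24.1%. Members also lay in longer genes. Counted once per transcript, the median length of the gene was 84.8 kb for members and 53.7 kb for transcripts with a counterpart. A long gene thus counts many times, and a gene can be in both sets. Of the intronic members, 33.3% were in a first intron, against 39.9%.

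Most members had no other member within 5 kb on their strand. On the same strand, 168 (11.6%) had another member within 5 kb, while 41.2% of the transcripts with a counterpart had another of their own set that near. The latter set is larger, so these shares cannot be set against each other as clustering. By chaining members within 5 kb, 1277 stood alone, 57 runs held 2, 10 runs held 3 and 6 runs held 4. The runs of 4 lay within Xylt2, Pitpnc1, Zdhhc14, Fnip2 and Arhgef10l or across the 3′ end of Stab1 and the sequence beyond it, and spanned 3.93 kb in Xylt2 to 9.26 kb in Zdhhc14. Xylt2, a xylosyltransferase that starts proteoglycan chains, is outside the 20 most-hit genes and was named for its run after its values were seen.

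The 1338 sense members were spread over 950 genes, and 737 of these held 1, 135 held 2 and 78 held 3 or more. The 78 held 331 members, and the transcripts in the same genes that did have a counterpart (n = 627) had a median log2 ratio of -1.32, against -0.65 over all genes. The 78 were picked for segments not called after IL-4 in these same libraries, so the lower ratio is a description. Of 505 genes with 5 or more control transcripts of score 0.5 or more, 246 had no control-only transcript and 21 had more than 50% of theirs in the set. In 331 genes every transcript of that score was control-only, but 296 of these genes had just 1. The 20 genes with the most members held 138, of which 128 were in introns, 66 in first introns and 37 (26.8%) in simple repeats or low-complexity sequence, with a median length of 166 bp.

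Zdhhc14, a palmitoyltransferase gene on chromosome 17 (5492557 to 5753811, plus strand), held the most, with 19 of its 35 transcripts of score 0.5 or more. Their scores ran from 0.5 to 1.4, 18 lay in intron 1, and they were scattered from 3.85 to 163 kb after the start. Of 110 control transcripts of any score on the gene, the highest was 5.8 at 64.5 kb. After IL-4, 50 were called, and the highest, 1.4, was at 226 kb. Over the stretch that held the members, 82 control and 12 IL-4 transcripts were called, and the longest gap between IL-4 calls ran from 118 to 193 kb. The 16 transcripts with a counterpart had a median log2 ratio of -2.77, the lowest of the 20 genes.

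Slc16a10, which encodes a transporter of aromatic amino acids, had 7 of 8 in the set. A pair of these were the highest-scoring nuclear members, both on the minus strand in intron 1. A segment of 276 bp annotated (CA)n scored 3.2 at 49.7 kb, and one of 118 bp annotated (CAAA)n scored 3.0 at 27.5 kb. The other 5 scored 0.5 to 0.8. A single IL-4 transcript was called on the gene, score 0.6 at 0.138 kb, against 20 in control. Nrp1, the neuropilin-1 co-receptor for semaphorins and VEGF, had 6 of 7, with scores of 0.7, 0.5, 0.5, 1.5, 1.1 and 1.2 in order along the gene, the last at its 3' end. After IL-4 it had 1 call, score 0.2 at 0.786 kb, where 29 had been called in control. Rnf150, a RING-finger gene, was the only gene with 5 or more transcripts of that score that had all of them in the set: 0.8, 1.7, 1.0, 0.5 and 0.8 between 3.54 and 81.6 kb, all in intron 1. Its 4 IL-4 calls, at most 0.2, lay at 181 kb and beyond, so the members' stretch held none.

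**Figure D3:**
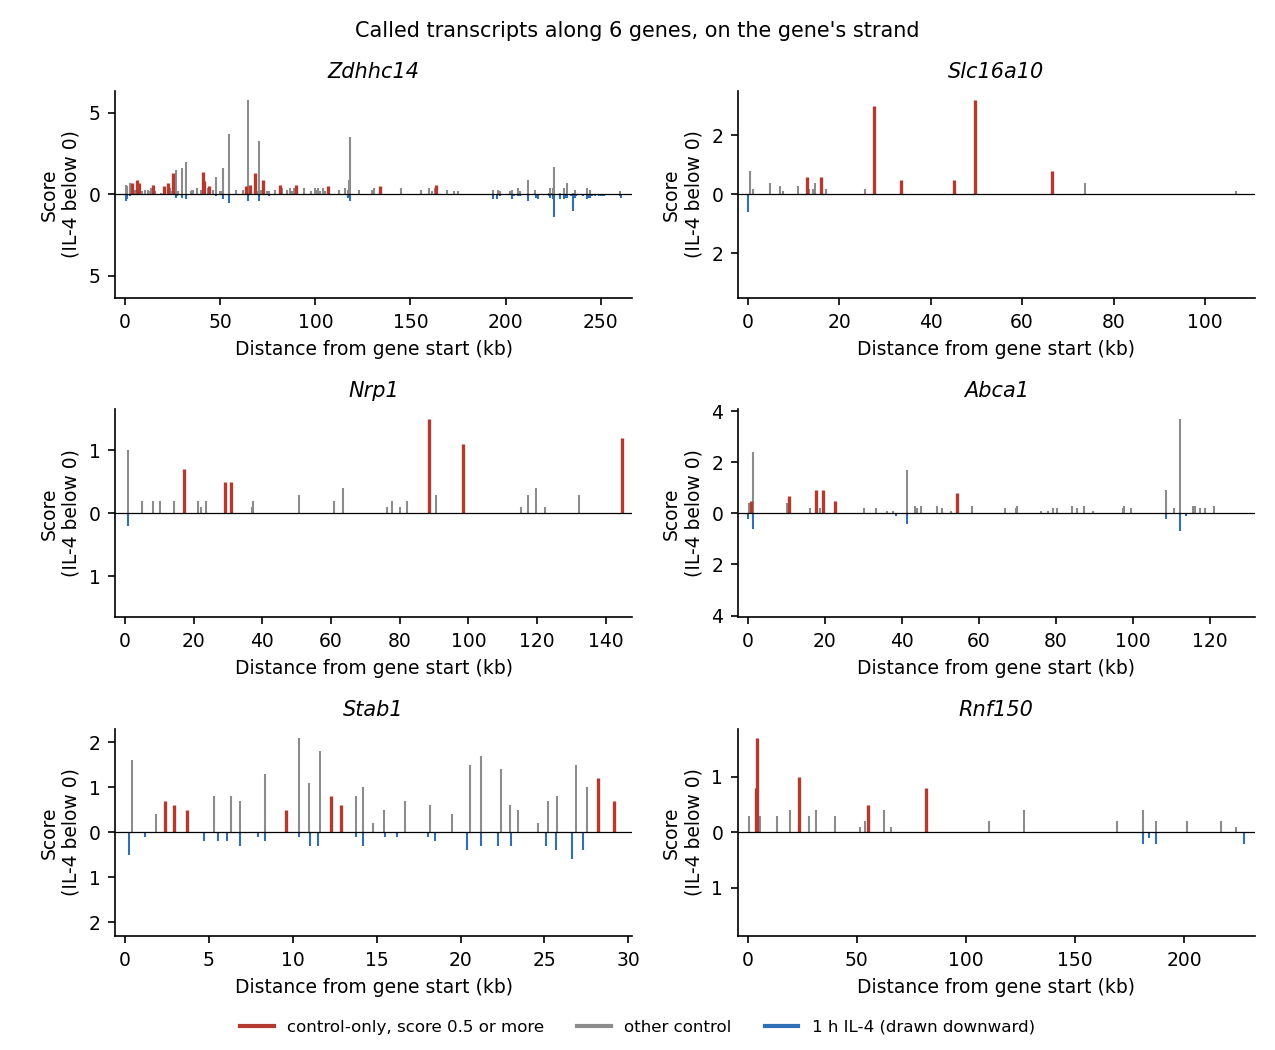
Score of each called transcript (y axis; control upward, IL-4 downward) against distance from the gene start in kb (x axis) for Zdhhc14, Slc16a10, Nrp1, Abca1, Stab1 and Rnf150, on the gene's strand, 1 library per condition. Control-only transcripts are red: Slc16a10 and Nrp1 have 1 IL-4 call each, close to the start, while in Stab1 23 of the 25 IL-4 calls lie within the stretch that the 8 control-only ones span.

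Abca1, the transporter that exports cholesterol and phospholipid to apolipoproteins, had 6 of 10, with scores of 0.5 at 0.861 kb, 0.7 at 10.7 kb, 0.9 at 17.6 kb, 0.9 at 19.6 kb, 0.5 at 22.7 kb and 0.8 at 54.4 kb. None was in a simple repeat. Control had 45 calls on the gene and IL-4 had 7, with highest scores of 3.7 and 0.7 at the same place, 112 kb from the start. Between 41.4 and 109 kb no IL-4 transcript was called. Stab1, the scavenger receptor stabilin-1, had 8 of 30 with scores of 0.5 to 1.2 and none in a simple repeat. Here the IL-4 library still had 25 calls against 34, with a highest score of 0.6 against 2.1, and all 8 members lay 0.345 to 1.54 kb from an IL-4 transcript.

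The remaining genes fell between these forms. Fnip2, a folliculin-interacting protein, had 9 of 38, each within 1.33 kb of an IL-4 transcript. Pid1, a phosphotyrosine-domain protein, had 8 of 25, and its highest score was 8.0 in control and 1.6 after IL-4. Pitpnc1, a phosphatidylinositol transfer protein, had 7 of 14 and highest scores of 5.1 and 1.2. Arhgap18, a GTPase-activating protein, had 7 of 11 with highest scores of 4.2 and 1.1. Arhgef10l, a guanine nucleotide exchange factor, had 5 of 8, among them a 38 bp (CAAA)n segment of score 2.7, and no IL-4 score above 0.2.

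Transcription factor and signalling genes were among the 20. Fli1, an ETS factor of blood cells, had 6 of 17, and Pou2f2, which encodes the octamer factor Oct-2, had 6 of 11. The adaptor Fyb had 6 of 22, the G protein subunit Gng2 6 of 11, the kinase Taok3 6 of 15 and the Golgi mannosidase Man1c1 6 of 19. Zswim6 had 5 of 7, Atxn7l1 5 of 12 and Lrmda 5 of 64. In all 20 genes the highest score was lower after IL-4, and in 19 fewer transcripts of any score were called; Lrmda, at 1036 kb the longest, had 242 against 210. Of the 19 genes with counterparts, 18 had a median log2 ratio below the -0.65 of all genes, and the exception was Slc16a10 with a single pair at -0.42. The 20 genes were picked for segments not called after IL-4 in these same libraries, so these scores, counts and ratios are a description. Over the whole library, 77.7% of the 9695 control transcripts with a counterpart were lower after IL-4.

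**Figure D4:**
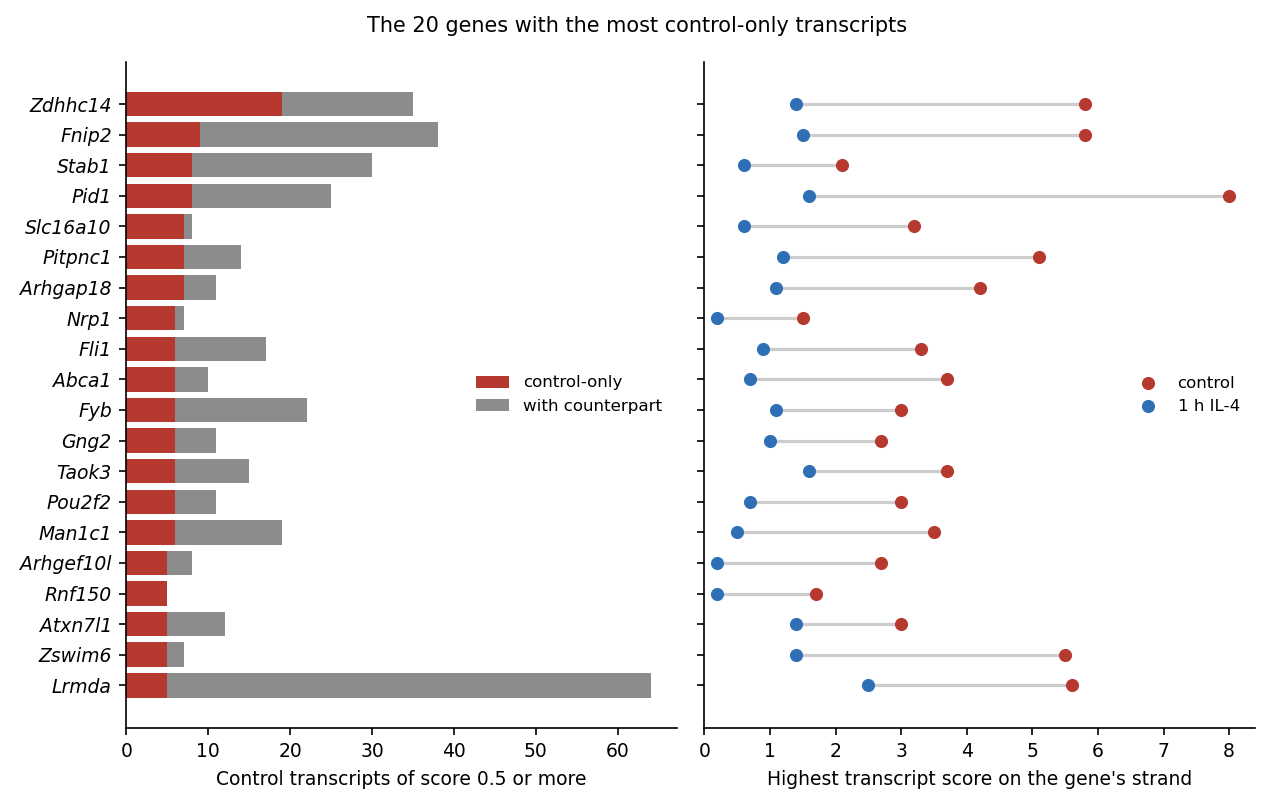
Left, control transcripts of score 0.5 or more in the 20 genes with the most members, control-only (red) and with an IL-4 counterpart (grey). Right, highest transcript score on the gene's strand in control (red) and after IL-4 (blue), 1 library each. The IL-4 value is the lower in all 20 genes, which were picked for segments not called after IL-4.

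In 94 of the 950 genes with a member, no IL-4 transcript of any score was called. Genes with a control transcript of score 0.5 or more numbered 4175. Members were selected for lacking an IL-4 overlap, so the count of 94 is a description. Mef2c, a MADS-box transcription factor, had 3 members of score 0.6 to 1.4 among 5 control calls, and Nfatc2, a calcineurin-activated factor, 3 of 0.6 to 0.8 among 18. Dapk1, a death-associated kinase, had 0.7 and 1.6 among 14, and Itga6, an integrin alpha chain, 0.7 and 1.0 among 10. Slc7a7, a transporter of basic amino acids, had 0.6 and 0.8 among 12. Msr1, the macrophage scavenger receptor class A, had a pair of 0.5 and no other control call. These genes were picked out after their values were seen.

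Pathway lists, 13 with 203 genes in all, were used to group members by role. They were written with earlier results of these data known and are a description. Of these genes, 102 had a control transcript of score 0.5 or more, 380 transcripts in all, and 45 of these (11.8%) were control-only, near the 13.0% of the whole library. They fell in 29 genes, in 8 of which no transcript of that score had a counterpart.

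For cholesterol handling, 13 of 30 transcripts were control-only (43.3%, interval 27.4% to 60.8%). Abca1 gave 6 of these and Mylip, a ubiquitin ligase, 2 of its 3, with scores of 0.7 and 0.9. The receptors Nr1h3 (LXR alpha) and Rxra gave 1 each, of score 0.6 and 0.7. Apoe, the lipoprotein that takes up exported cholesterol, gave a segment of 286 bp and score 1.7 in intron 1, 0.073 kb from an IL-4 transcript, and its highest scores were 3.7 in control and 3.4 after IL-4. Scarb1, an HDL receptor, gave 1 of score 0.6, and Srebf2, which drives cholesterol synthesis, 1 of 0.5. Abcg1, Npc1 and Soat1 had transcripts of score 0.5 or more and none control-only. Without Abca1 the list held 7 of 20 (35.0%).

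Among pattern recognition genes, 4 of 19 toll-like receptor list transcripts were control-only (21.1%, 8.51% to 43.3%). Irak2, a kinase of that pathway, gave 2 of 8, one of score 1.6, Tlr2 1 of 2 (score 0.7) and Tlr7 1 of 2 (0.5), while the adaptor Myd88 and the co-receptor Cd14 gave none. C-type lectin and Fc receptor genes gave 5 of 24, 3 from the kinase Syk and 1 each from the lectin Clec4d (62 bp, (TTTTG)n, score 1.8) and Fcgr3. Nlrp3, the inflammasome sensor, gave 1 of score 0.5, the only transcript of that score on its list. Ikbke was the source of 1 of 24 for NF-kB subunits and inhibitors.

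Of 19 transcripts in leukocyte integrin and adhesion genes, 5 were control-only, each in an integrin gene: Itgb5 2 of 2 (0.6 and 0.5), Itgb1 0.7, Itga4 0.7 and Itga5 0.5. Calls of any score in control and after IL-4 fell in Itgb5 (15 and 1) and Itga4 (7 and 1). They rose in Itgb1 (4 and 9) and Itga5 (5 and 8). Of the list genes without a member, Cd44 (10 and 58), Itgav (4 and 10), Tln1 (14 and 19) and Vcl (0 and 1) had more calls. Itgb2 (11 and 6) and Itgal (4 and 1) had fewer. In chemokine and chemokine receptor genes the count was 2 of 6, and Cxcl16, a membrane-bound chemokine, gave 1 of these (0.7). In TGF-beta signalling it was 5 of 32. The transducer Smad3 gave both of its transcripts, 0.6 and 0.5, and had 11 calls in control and none after IL-4. The receptors Tgfbr1 and Tgfbr2 gave 2 of 4 and 1 of 9.

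Other lists held few or none. The IL-4 receptor and JAK-STAT list gave 2 of 24 (8.33%), both from Jak1, the kinase that signals from the IL-4 receptor, whose highest scores were 7.5 and 2.8. Macrophage lineage factors gave 7 of 160 (4.38%, 2.14% to 8.75%): 3 from Spi1, which encodes PU.1, 2 from Runx1 and 1 each from Mitf and Maf. Zeb2 alone held 59 of the 160, none of them control-only. The low share thus leans on this gene, and the share without it was not worked out. The alternative polarization list gave 0 of 14 (upper limit 21.5%), with Mrc1, the mannose receptor, going from 21 calls and a top score of 2.7 to 97 calls and 13.1. AP-1 and immediate early factors gave 0 of 11, and housekeeping genes 0 of 16. Most lists are small, and all intervals except those of the cholesterol, lineage factor and single-transcript Nlrp3 lists held 13.0%. The intervals treat transcripts of a single gene as independent and are no test of a list against the whole library. Abca1 gave 6 of the 13 cholesterol members, and Zeb2 held 59 of the 160 lineage factor transcripts.

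**Figure D5:**
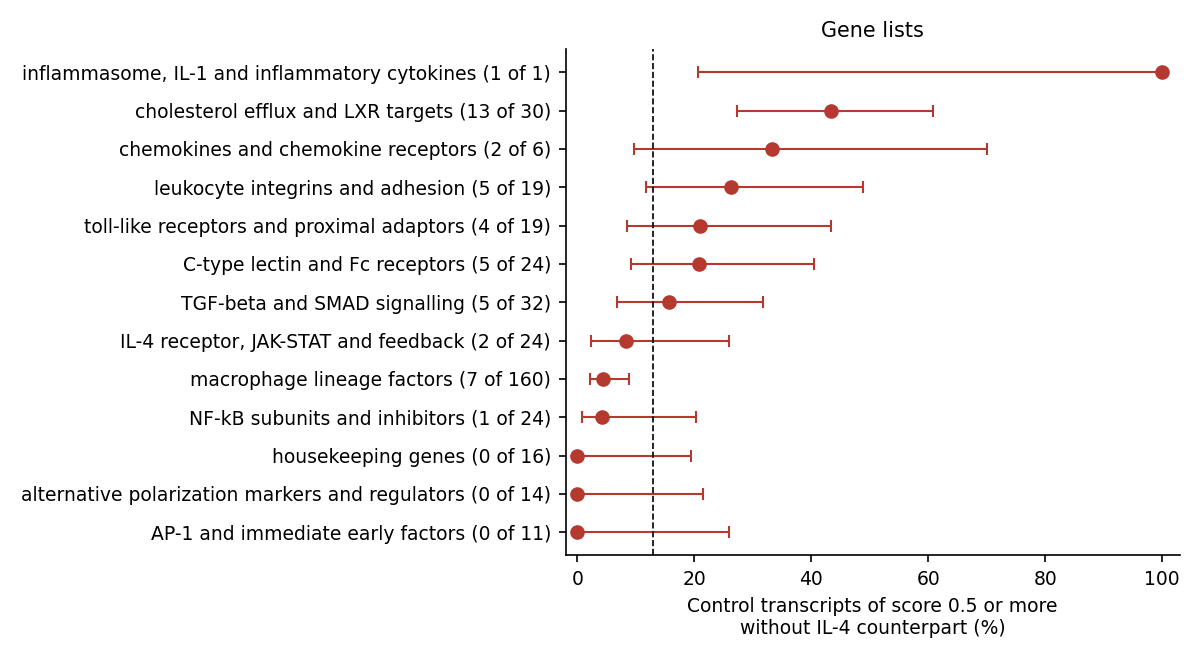
Share of control transcripts of score 0.5 or more without an IL-4 counterpart in each of 13 gene lists (x axis, %), with 95% Wilson intervals, counts in brackets and the 13.0% of the whole library dashed. The cholesterol list (13 of 30) lies to the right of the line and the macrophage lineage factors (7 of 160) to its left. Zeb2 alone holds 59 of those 160 transcripts, none control-only, and Abca1 gives 6 of the 13. The intervals treat transcripts of a single gene as independent and are no test.

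The defining macrophage markers were called in both libraries with 1 exception. Csf1r, Adgre1, Cd68, Lyz2 and Mertk had 64 control transcripts of score 0.5 or more, 2 of them control-only (Lyz2 and Mertk 1 each), and Itgam had no call in either library. Markers of T cells, B cells, dendritic cells and fibroblasts had no call in either library. Of the neutrophil and progenitor markers, the granule enzyme Mpo had 1 control call, a member of 51 bp and score 0.6, and none after IL-4, S100a8 had 2 calls in each library, and Ly6g and Elane had none.

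The highest score of all members, 4.2, belonged to a 387 bp segment of the mitochondrial 12S rRNA gene mt-Rnr1 (chrM, 562 to 948, plus strand), which is not made by RNA polymerase II. Next to it, mt-Rnr2 had scores of 9.6 to 22.5 in control and a transcript of 34.0 after IL-4 that started 0.151 kb past the member's end. Among nuclear members, Plekhm3 (2.5) followed Slc16a10 and Arhgef10l, all in simple repeats. Gpnmb, a transmembrane glycoprotein of phagocytes, gave 2.1 in a LINE element of intron 1, and F13a1, a coagulation factor chain made by macrophages, 1.7. Neat1, the nuclear RNA that builds paraspeckles, gave a 277 bp segment of 1.5, and Ncl a 133 bp coding segment of 1.7 that the file assigns to the promoter of the small RNA Snord82. These segments were named for their score after it was seen.

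Promoter members were few and low. Of the 32, 20 lay on the sense strand of a gene and 12 did not, none was in a CpG island, and 20 were over 1 kb from any IL-4 transcript of their strand. Ddit4, a stress-induced inhibitor of mTORC1, gave a 150 bp segment of score 0.6 with no IL-4 transcript on its strand within 46.9 kb. Unc13d, needed for granule release, gave 713 bp of score 0.5, and Mir24-2, a microRNA locus, 131 bp of 0.5, and these lay 0.12 and 0.126 kb from an IL-4 transcript. On the strand opposite to Lrp1, a lipoprotein receptor, and Cat, the catalase gene, promoter segments of 324 and 59 bp scored 0.5.

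Outside genes on their strand lay 107 members, 31 antisense to a gene and 76 with no gene on either strand. Their median score was 0.6, the top 1.6 and the median length 75 bp, and 29 (27.1%) were in simple repeats or low-complexity sequence. The file calls 131 members intergenic, and 67 of these lay in a GENCODE gene on its strand. Examples are a pair in Spi1, both 0.7, and 3 in Atxn7l1. Among those nearest to the granulin gene Grn and the phosphatase gene Dusp6 were segments of 138 bp (1.1) and 91 bp (0.9).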

How the data were processed

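GRO-seq was done on 2 libraries, 1 per condition. The submitters' processing notes name BWA 0.7.10, SAMtools 0.1.19 and HOMER 4.2 and the mm10 build, and per the study's methods reads were aligned with BWA and transcripts called and annotated in each library with HOMER. The only measurement used is a score for each transcript, deposited by the authors to the nearest 0.1. Its scaling is not given in the sources used here and the sequencing depth is unknown, which leaves the counting error of each score unknown.

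Each control transcript of score 0.5 or more was matched to any IL-4 transcript of its strand that shared 1 bp or more. Members were assigned to GENCODE M21 (GRCm38) genes on their strand, coding genes first, then by the larger overlap. A log2 ratio sets the highest-scoring IL-4 transcript that overlaps over the control transcript. Repeat units were read from the annotation and turned to the transcribed strand. Sequences were read from the GENCODE transcripts by exon coordinates, which gave the same 50 bases as the RefSeq promoter windows in 2867 of 2867 checked. The matching was tested on simulated data. With 1 library per group no test was run, and shares carry 95% Wilson intervals.

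Named genes were the 20 with the most sense members (ties by summed score) and list genes with a member. The members and lists were chosen with earlier results of these data known, and other genes were named after their values were seen. Some genes and sequences are not reported here. Python 3.11.15 and pandas 2.3.3 were used. Alternatives were score limits of 0.4 and 1.0, an overlap of 50%, IL-4 transcripts within 100 or 1000 bp, either strand, repeats left out, gene names of the file, and neighbour limits of 2 and 10 kb.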

Additional observations from a re-analysis of the deposited data

How the results depend on the processing

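With 1 library per condition, replicates could not be left out and no paired analysis was possible because each group held a single sample. The score limit moved the counts most. At 0.4 there were 2582 control-only transcripts (16.4% of the control transcripts of that score), 24.5% were in simple repeats or low-complexity sequence, 17.1% had another within 5 kb and 173 genes held 3 or more. At 1.0 there were 116 (3.67%), 84.5% in introns, 32.8% in such repeats, 94.8% sense to a gene and 2.59% near another, 3 genes held 3 or more, and the 20 most-hit genes held 21 in place of 138, with 10 of these genes at 0. Asking for overlap of 50% gave 18.4% without counterpart, 22.3% in repeats, 16.0% near another and 124 genes. Counting an IL-4 transcript within 1000 bp gave 9.85%, 30.6%, 9.57% and 46 genes for the same quantities. Leaving repeats out gave 11.8% without counterpart, 76.4% in introns and 49 genes. With the gene names of the file, 63.0% were in the named gene on its strand, 12 of the 48 named genes changed their count beyond 1.5 times, with Nrp1, Lrmda, Spi1, Itgb5, Srebf2 and Cxcl16 at 0, and Maf had 6 in place of 1. Neighbour limits of 2 and 10 kb gave 6.02% and 19.2%. Within 100 bp and on either strand, every share stayed inside its interval. Scores rounded to 0.1 and unknown depth limit all values near 0.5.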
